A study of Mus with 35 samples.

Results

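The 10 genes described here mark the endothelial cells of brain vessels and carry parts of the blood-brain barrier: Cldn5, Pecam1, Cdh5, Flt1, Kdr, Tek, Slc2a1, Slco1a4, Abcb1a and Mfsd2a. They were taken by gene symbol, without regard to their values, and each matched 1 row, so they make up 10 of the 55573 rows of the deposited expression table. Every one of the 10 was detected in every library, with a lowest value of 3.29 TPM (a relative transcript abundance, corrected for transcript length and scaled to the same total in every library), and all 10 passed the filter of a mean of at least 1 TPM.

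Endothelial cells of brain capillaries are sealed to each other by tight junctions, let little pass between or through them, and move nutrients and drugs by dedicated carriers and pumps. The claudin encoded by Cldn5 seals the space between cells, VE-cadherin (Cdh5) and PECAM-1 (Pecam1) hold neighbouring cells together, and the receptors encoded by Kdr, Flt1 and Tek receive VEGF and angiopoietin signals. GLUT1 (Slc2a1) brings in glucose, Mfsd2a brings in lysophospholipids that carry docosahexaenoic acid and holds down vesicular transport across the cell, and P-glycoprotein (Abcb1a) and the organic anion carrier encoded by Slco1a4 move drugs, hormones and other organic compounds.

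The study tested an antisense oligonucleotide (ASO) against Hnrnph2, an X-linked gene for an RNA-binding protein, in males hemizygous for one of the missense alleles P209L and R206W and in wild-type (WT) littermates. All mice were C57BL/6J males, and all were given 1 injection of 30 µg of either the Hnrnph2 ASO or a control ASO into the brain ventricles on postnatal day 2 to 4, so no group is free of an ASO. The 12 groups were P209L mice with the Hnrnph2 ASO, P209L mice with the control ASO, WT mice with the Hnrnph2 ASO and WT mice with the control ASO at 8 weeks, the same 4 at 3 weeks, and the corresponding 4 groups with R206W in place of P209L at 3 weeks. Each group had 3 libraries, apart from the P209L mice with the Hnrnph2 ASO at 3 weeks, which had 2, for 35 libraries in all. Cohort is not given for the WT libraries at 3 weeks, and the series of their library numbers decided whether they went with P209L or R206W mice. Nothing in the labels says outright that each library is a separate animal, so p-values measure the spread between these samples.

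The labels name whole brain in one place and dissected cortex in another, and the 7 cerebellar marker genes summed to between 501 and 1314 TPM in the libraries. Read depth is unknown. The libraries held 16235 to 16649 genes at 1 TPM or more, and the top 50 genes took up 23.1% to 33.8% of their TPM. One library stood apart: replicate 3 of the WT mice with the Hnrnph2 ASO at 3 weeks in the P209L cohort had the lowest mean correlation with its own group (0.977), the lowest mitochondrial share (9.28%) and the highest summed level of the 10 genes (351 TPM). Slc2a1 (118 TPM), Mfsd2a (52.8 TPM), Flt1 (23.9 TPM) and Pecam1 (16.8 TPM) were each at their highest of all 35 libraries there, so age results are also given without it. As a check of the labels, Hnrnph2 itself was lower with its ASO, with log2 differences of -2.80 in mutants (SE 0.092, limma adjusted p = 5.94e-18) and -2.37 in WT mice (SE 0.088, adjusted p = 1.53e-16).

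In median level over the 35 libraries the genes ranged over more than an order of magnitude in TPM. Slc2a1 (mm10 4:119108745-119137330) stood highest at 71.9 TPM, followed by Cldn5 (16:18776847-18778262) at 56.9, Slco1a4 (6:141805438-141856284) at 33.8 and Mfsd2a (4:122946850-122961194) at 29.8 TPM. Flt1 (5:147561604-147726438) at 16.9, Abcb1a (5:8567091-8748575) at 13.2 and Pecam1 (11:106654213-106715281) at 11.3 TPM came next, and Cdh5 (8:104101613-104144504) at 8.21, Kdr (5:75932827-75979072) at 7.13 and Tek (4:94739086-94874976) at 5.78 TPM were lowest. Slc2a1 also serves other cells of the brain, so its level is not that of endothelium alone.

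Some neighbours in this order were separated in every library and others were not. Flt1 was above Abcb1a, and Pecam1 above Cdh5, in 35 of 35 libraries, and Slc2a1 was above Cldn5 in 31. Slco1a4 was above Mfsd2a in all 12 libraries at 8 weeks but in 6 of 11 and 7 of 12 libraries of the P209L and R206W cohorts at 3 weeks, so their order there is within the spread. The pairs that changed places between ages were Mfsd2a with Flt1 and Kdr with Tek. Mfsd2a was above Flt1 in 0 of 12 libraries at 8 weeks and in all 23 libraries at 3 weeks (11 of 11 and 12 of 12), and Kdr was above Tek in 1 of 12 libraries at 8 weeks and again in all of the 3-week libraries. The variation over all 35 libraries was also greatest for these members, with a coefficient of variation of 36.4% for Mfsd2a and 30.7% for Kdr, against 9.73% for Abcb1a, the steadiest of the 10.

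**Figure D1:**
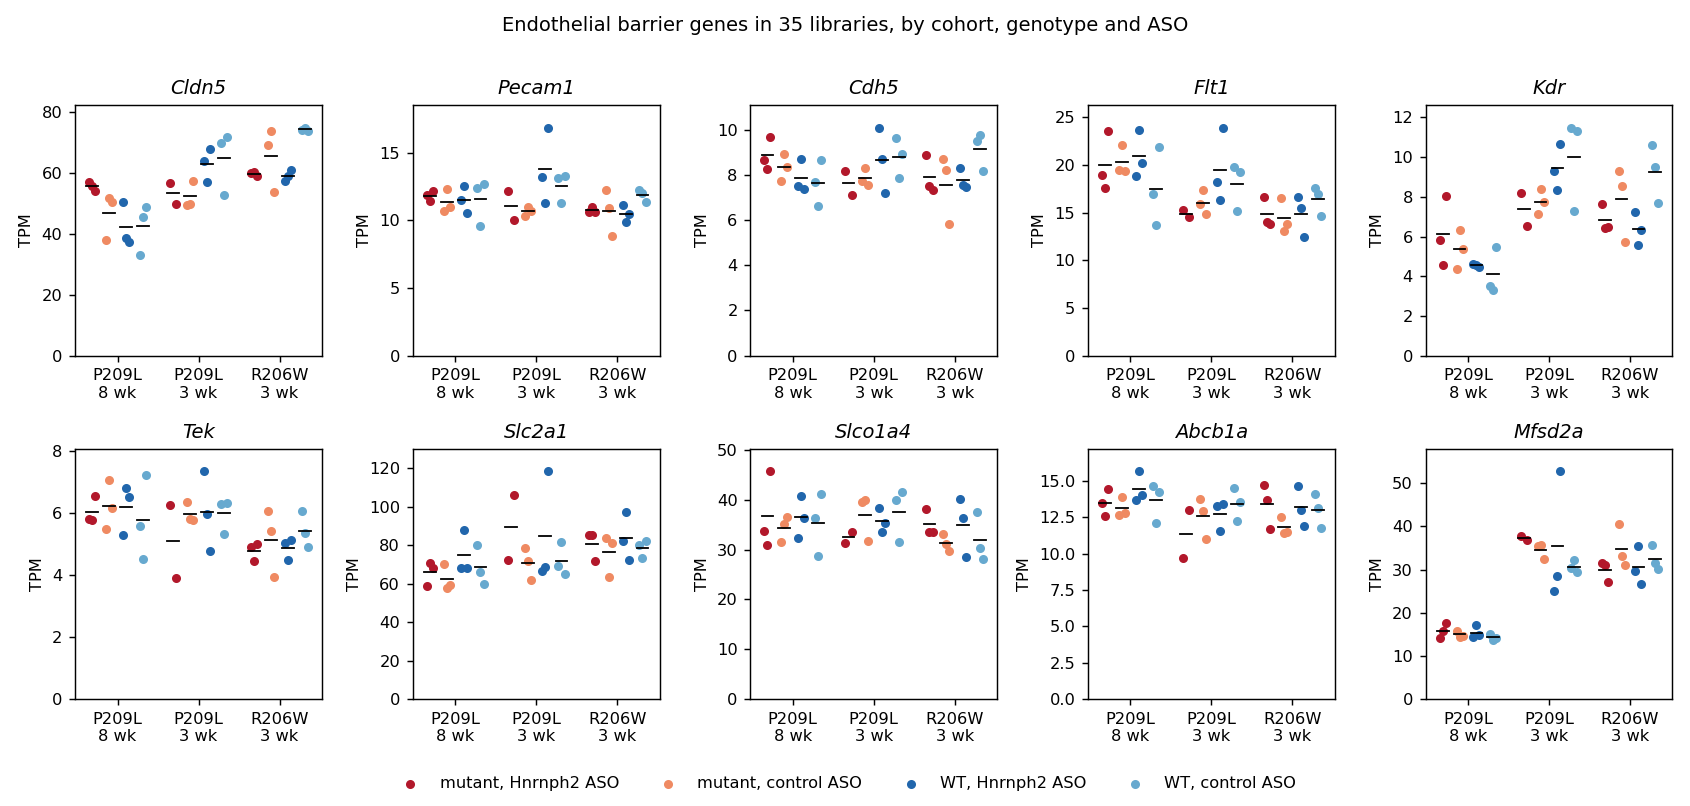
TPM of each gene (vertical axis, from 0) in every library, by cohort on the horizontal axis; points are libraries, coloured by genotype and ASO, and black lines are group means. Mfsd2a lies between 13.7 and 17.5 TPM in the 8-week cohort and between 25.0 and 52.8 TPM in the 3-week P209L cohort, while Abcb1a and Cdh5 lie at similar heights throughout.

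Age was compared between the 8-week and the 3-week P209L cohorts, as the average of the differences in the 4 groups that both share. Each age is its own cohort of mice, so age and cohort cannot be told apart, and WT mice of the R206W cohort serve as another set at 3 weeks. Over all genes, 42.1% of the 16556 tested passed an adjusted p of 0.05 (15.5% higher and 26.6% lower at 8 weeks). Of the 10 barrier genes 4 passed, 1 higher and 3 lower, a share near that of all genes, and their median difference of -0.03 was beside -0.03 for all genes. Mfsd2a, Kdr and Cldn5 fell and Flt1 rose, while Pecam1, Cdh5 and Tek stayed within 0.07 of 0 on the log2 scale. Those last genes do not stand for all general endothelial genes, since a wider list given below had more genes lower than higher at 8 weeks. In bulk tissue, fewer cells of a type and less RNA per cell cannot be told apart.

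Among the junction and adhesion genes, Cldn5 was lower at 8 weeks. In P209L mice with the Hnrnph2 ASO it stood at 56.9, 55.6 and 54.1 TPM at 8 weeks, against 56.8 and 49.7 TPM at 3 weeks. With the control ASO, P209L mice had 38.0, 51.9 and 50.5 TPM at 8 weeks, against 49.5, 49.9 and 57.4 TPM at 3 weeks. These P209L groups overlapped between the ages under both ASOs. WT mice with the Hnrnph2 ASO had 50.4, 38.6 and 37.3 TPM at 8 weeks, against 63.9, 57.2 and 67.7 TPM at 3 weeks, and those with the control ASO had 32.9, 45.6 and 48.7 TPM, against 69.8, 52.7 and 71.9 TPM. In WT, all 8-week libraries were below all 3-week libraries under each ASO. The share of all genes that separate between the ages within a single group was not counted. Such separations of Cldn5, and of Kdr and Mfsd2a below, are thus given as description only. Averaged over the 4 groups, Cldn5 was lower at 8 weeks by a log2 difference of -0.32 (SE 0.071, adjusted p = 0.0006), and without the library that stood apart the difference was -0.31 (adjusted p = 0.00141). Against the 3-week WT mice of the R206W cohort, with 57.3 to 74.7 TPM, 8-week WT mice had 32.9 to 50.4 TPM and a difference of -0.65 (SE 0.097, adjusted p = 1.07e-05). In that second comparison 35.8% of all genes passed. Between the WT mice of the 2 cohorts at 3 weeks, 0 of the 10 members passed, while 27.1% of all genes did.

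Pecam1 and Cdh5 gave no call. Pecam1 averaged 11.6 ± 0.953 TPM at 8 weeks (SD, n = 12) and 12.1 ± 1.95 TPM at 3 weeks (SD, n = 11), with a difference of -0.04 and a 95% interval of -0.16 to 0.08. Cdh5 averaged 8.18 ± 0.827 TPM at 8 weeks and 8.30 ± 0.959 TPM at 3 weeks, with a difference of -0.01 and an interval of -0.14 to 0.12. The sign of both turned under a rescaling of the libraries by their median ratio (0.01 for Pecam1 and 0.04 for Cdh5), again without a call. Without the library that stood apart the differences were -0.0066 for Pecam1 and -0.04 for Cdh5, without a call.

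Of the VEGF and angiopoietin receptors, Kdr was lower at 8 weeks. Kdr, the main signalling receptor for VEGF-A, had 5.81, 4.58 and 8.05 TPM at 8 weeks in P209L mice with the Hnrnph2 ASO, against 8.21 and 6.55 TPM at 3 weeks. In WT mice with the control ASO it had 3.49, 3.29 and 5.49 TPM at 8 weeks, against 11.5, 7.29 and 11.3 TPM at 3 weeks. P209L mice with the control ASO had 4.37, 6.34 and 5.36 TPM at 8 weeks, against 7.13, 8.39 and 7.72 TPM at 3 weeks. In WT mice with the Hnrnph2 ASO, Kdr had 4.64, 4.55 and 4.47 TPM, against 9.3, 8.35 and 10.67 TPM. The ages overlapped in P209L mice with the Hnrnph2 ASO and did not overlap in the other groups. Over the whole cohorts Kdr ran from 3.29 to 8.05 TPM at 8 weeks with a mean of 5.04, which was 57.5% of the 3-week P209L cohort's mean of 8.76 TPM. The log2 difference was -0.69 (SE 0.095, adjusted p = 1.92e-06), and it was -0.66 without the library that stood apart and -0.72 (SE 0.13, adjusted p = 0.000126) against the R206W cohort's WT mice.

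Flt1, which binds VEGF-A tightly and also exists as a soluble form that takes VEGF-A up, was on average higher at 8 weeks by a narrow margin. It averaged 19.7 ± 2.86 TPM at 8 weeks and 17.3 ± 2.82 TPM at 3 weeks, with overlapping ranges of 13.7 to 23.6 and 14.5 to 23.9 TPM. The difference of 0.19 (SE 0.076) passed narrowly at an adjusted p of 0.0443. It did not pass with no filter on low values (adjusted p = 0.0871) or with only the compared groups fitted (adjusted p = 0.0624), and it passed in 10 of 23 fits that left out 1 library each, among them the one without the library that stood apart (0.23, adjusted p = 0.0143). By group, Flt1 gave 0.39 and 0.32 in P209L mice with the Hnrnph2 and the control ASO, neither passing. In WT mice it gave 0.11 with the Hnrnph2 ASO and -0.06 with the control ASO, again without a call. Against the R206W cohort's WT mice the age difference was 0.27 (adjusted p = 0.0464). Between WT mice of the R206W and P209L cohorts at 3 weeks, Flt1 differed by -0.24 (adjusted p = 0.0845), larger in size than the age average. Tek, the angiopoietin receptor Tie2, averaged 6.07 TPM at 8 weeks and 5.84 TPM at 3 weeks, a difference of 0.07 with an interval of -0.09 to 0.23.

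Of the transporters, Mfsd2a showed the largest age difference of the 10 genes. P209L mice with the Hnrnph2 ASO had 14.1, 15.8 and 17.5 TPM at 8 weeks, against 37.8 and 36.9 TPM at 3 weeks, and those with the control ASO had 15.9, 14.4 and 14.7 TPM, against 35.4, 35.6 and 32.4 TPM. WT mice with the Hnrnph2 ASO had 14.3, 17.1 and 14.9 TPM at 8 weeks, against 25.0, 28.6 and 52.8 TPM at 3 weeks, and those with the control ASO had 15.1, 13.7 and 14.3 TPM, against 30.3, 32.2 and 29.4 TPM. The ages did not overlap in any of the 4 groups, and all 12 libraries at 8 weeks were below all 23 at 3 weeks, since the lowest of the R206W cohort was 26.6 TPM. Mfsd2a was the 1 member of 10 whose 8-week libraries all lay below both 3-week cohorts, as 2.22% of all genes did (3.55% for the P209L cohort alone). Its 8-week mean was 44.2% of the 3-week mean, and the log2 difference of -1.12 (SE 0.081, adjusted p = 2.95e-11) had an exact permutation p of 1.25e-05, the smallest that permuting ages within the 4 groups can give. Every one of the 4 groups passed by itself, with differences of -1.19 and -1.15 in P209L mice with the Hnrnph2 and the control ASO and of -1.08 and -1.04 in WT mice with the same 2 ASOs. Without the library that stood apart the average was -1.04, and against the R206W cohort's WT mice it was -1.03.

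The other 3 carriers and pumps gave no age call. Slc2a1 had 68.0 ± 8.97 TPM at 8 weeks and 78.3 ± 17.98 TPM at 3 weeks, with a difference of -0.20 (SE 0.09, adjusted p = 0.0795) that shrank to -0.13 without the library that stood apart and passed in 4 of the 23 fits that left out 1 library. Abcb1a had 13.7 ± 1.03 TPM at 8 weeks and 12.6 ± 1.40 TPM at 3 weeks, with a difference of 0.12 (SE 0.054, adjusted p = 0.0687) that passed when the libraries were rescaled (0.18, adjusted p = 0.00169) and in 3 of the 23 fits that left out 1 library. Slco1a4 had 35.8 TPM at 8 weeks and 36.0 TPM at 3 weeks, a difference of -0.0021 with an interval of -0.16 to 0.15. Abcb1a has a close paralog, Abcb1b, at a mean of 1.81 TPM, and Slco1a4 belongs to a family of related genes. Whether a share of their reads was assigned among paralogs was not tested.

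**Figure D2:**
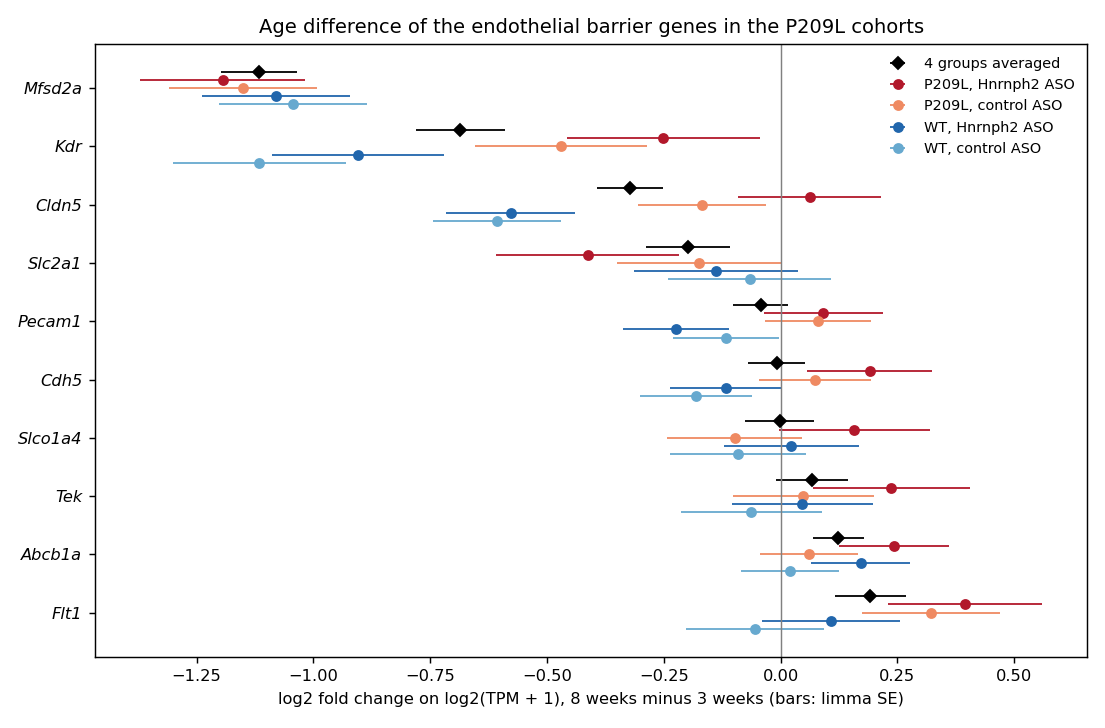
Log2 fold change of each gene at 8 weeks minus 3 weeks in the P209L cohorts (horizontal axis, on log2(TPM + 1); genes on the vertical axis), as the average of 4 groups (diamonds) and in each group (circles), with bars of 1 limma SE. Mfsd2a lies between -1.19 and -1.04 in all 4 groups, Kdr and Cldn5 lie farther from 0 in WT than in P209L mice, and Pecam1, Cdh5, Tek and Slco1a4 average near 0.

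Each gene was also set against the mean log2 level of Pecam1, Cdh5 and Tek in the same library, a description chosen after the data were seen. The age differences of these 3 genes were already known to be near 0, so the ratios could only give nearly the same age differences as the levels, and they are no further evidence for them. The log2 ratio of Mfsd2a averaged 0.79 ± 0.123 at 8 weeks (SD, n = 12), against 1.89 ± 0.354 in the 3-week P209L cohort (n = 11) and 1.92 ± 0.168 in the R206W cohort (n = 12). For Kdr it averaged -0.65 ± 0.219 at 8 weeks, against 0.04 ± 0.163 and -0.04 ± 0.151 in the same 3-week cohorts. For Cldn5 it averaged 2.34 ± 0.258 at 8 weeks, against 2.67 ± 0.134 and 2.91 ± 0.107.

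**Figure D3:**
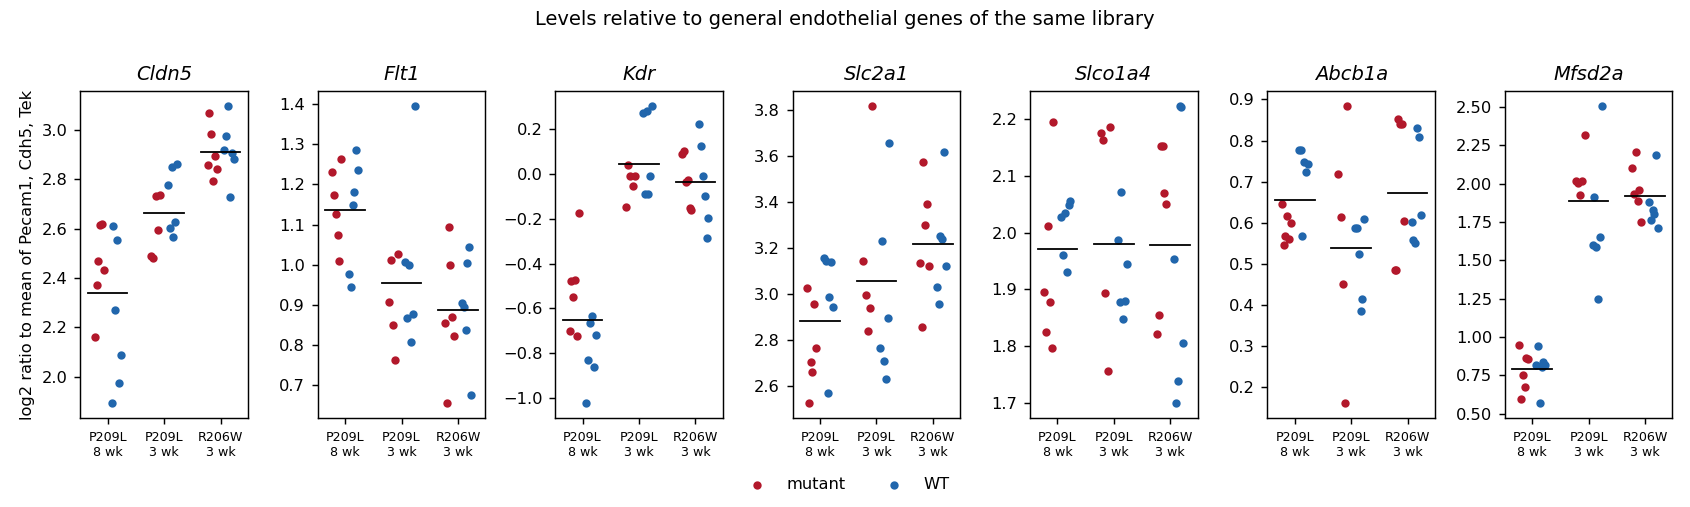
Log2 ratio of 7 genes to the mean of Pecam1, Cdh5 and Tek in the same library (vertical axis) in the 3 cohorts (horizontal axis); points are libraries of mutant and WT mice and black lines are cohort means. Mfsd2a averages 0.79 in the 8-week cohort, against 1.89 and 1.92 in the 3-week P209L and R206W cohorts, and Slco1a4 averages 1.97, against 1.98 in both.

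Wider lists of vascular genes, with members chosen for their known roles, held calls in both directions with age. They are to be read against the 15.5% of all genes that were higher and the 26.6% that were lower, and against a median of -0.03. Of 14 further barrier transporters, 0 were higher and 9 lower at 8 weeks, with a median of -0.19. The largest was Slc16a1, the monocarboxylate carrier MCT1, with 22.5 ± 3.46 TPM at 8 weeks and 36.4 ± 6.41 TPM at 3 weeks (-0.66, SE 0.085, adjusted p = 6.67e-07). Its chaperone gene Bsg (-0.18) and both chains of the large amino acid carrier, Slc7a5 (-0.43) and Slc3a2 (-0.22), also fell. Bsg averaged 603 TPM at 8 weeks, against 11.6 TPM for Pecam1. For this list and those below, which cells of the bulk tissue the levels came from was not tested. Of 9 further tight junction genes, 1 was higher and 5 lower: Cgn, which encodes the plaque protein cingulin, rose (0.33), and Lsr (-0.22), Esam (-0.20) and Tjp1 (-0.19), which encodes a junction scaffold, fell.

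In the VEGF and angiopoietin list, 3 of 15 tested genes were higher and 6 lower. The ligand Vegfb rose, with 77.4 ± 5.27 TPM at 8 weeks and 59.9 ± 3.36 TPM at 3 weeks (0.37, SE 0.046, adjusted p = 3.72e-07). Dll4 (-0.45), a Notch ligand of sprouting endothelium, the TGF-beta co-receptor gene Eng (-0.35) and the apelin receptor gene Aplnr (-0.67) fell. Vegfa, the ligand of both Flt1 and Kdr and named here after its value was seen, was higher by 0.15 (adjusted p = 0.0309). The list of Wnt signalling at the barrier had 3 of 17 higher and 5 lower. There the Wnt target Apcdd1 fell most, with 19.8 ± 3.68 TPM at 8 weeks and 34.95 ± 3.66 TPM at 3 weeks (-0.80, SE 0.076, adjusted p = 3.17e-09), and Ctnnb1 (-0.35), which encodes beta-catenin, the Wnt feedback gene Nkd1 (-0.25) and the norrin co-receptor gene Tspan12 (-0.22) fell as well.

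Of 16 general endothelial identity genes, 3 were higher and 9 lower, with a median of -0.17. The values of Pecam1, Cdh5 and Tek near 0 are thus not those of endothelial genes in general. Ly6a rose (0.49), and Robo4 (-0.40), Palmd (-0.32) and Vwf (-0.50), which encodes von Willebrand factor, fell. The arterial and venous list had 1 of 8 tested genes higher and 4 lower: Gkn3, an arterial gene, rose to 4.06 ± 0.741 TPM at 8 weeks, against 1.49 ± 0.755 TPM at 3 weeks (1.08, SE 0.14, adjusted p = 7.21e-07), and Ackr1 (-0.66), the arterial gap junction gene Gja4 (-0.25) and the Notch target Hey1 (-0.17) fell. Genes of permeability and leukocyte adhesion had 0 of 7 tested genes higher and 1 lower, Icam1 (-0.16, adjusted p = 0.0393). Plvap, the protein of fenestrated and leaky vessels, gave 0.09 (adjusted p = 0.136).

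Markers of other cell types differed between the same cohorts. All 7 oligodendrocyte genes were lower at 8 weeks, with summed levels of 5081 to 7243 TPM against 11141 to 14914 and 9755 to 14598 TPM in the 3-week P209L and R206W cohorts, without overlap. All 5 erythrocyte genes tested were lower (731 to 1821 TPM against 1020 to 5848 and 1451 to 4975 TPM). Among 9 choroid plexus genes 4 were higher and 0 lower (891 to 1543 TPM against 637 to 1268 and 640 to 1163 TPM), and among 11 leptomeningeal genes 5 were higher and 3 lower. Of 13 pericyte and smooth muscle genes 4 were higher and 4 lower, and the contractile genes Acta2 (0.57), Tagln (0.51) and Myh11 (0.50) rose while Cspg4 (-0.44) fell. No marker measured in these lists was at 0 in all 35 libraries, and the part of these cell types in the age differences was not tested. Relative to a rescaling of each library, 4017 genes were higher and 3170 lower at 8 weeks, against 2571 higher and 4396 lower on the TPM as deposited, so the balance of directions in any list depends on the scale.

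In single groups 1 member (Mfsd2a) passed with age in P209L mice with the Hnrnph2 ASO (15.8% of all genes) and 1 with the control ASO (10.2%), and 3 (Mfsd2a, Kdr and Cldn5) passed in WT mice with the Hnrnph2 ASO (11.8%) and with the control ASO (11.4%). Whether age differences depended on genotype was tested directly, as the age difference in P209L mice minus that in WT mice over both ASOs. Cldn5 differed between the ages by 0.06 and -0.17 in P209L mice with the Hnrnph2 and the control ASO, neither passing, and by -0.58 (adjusted p = 0.0057) and -0.61 (adjusted p = 0.004) in WT mice. Kdr gave -0.25 and -0.47 in P209L mice, neither passing, and -0.90 (adjusted p = 0.00144) and -1.12 (adjusted p = 0.000166) in WT mice. The difference between genotypes was 0.54 for Cldn5 (SE 0.142, unadjusted p = 0.000742, adjusted p = 0.201) and 0.65 for Kdr (SE 0.19, adjusted p = 0.255), so neither passed over all genes, of which 0% did. Unadjusted, 5 of the 10 barrier genes had p under 0.05 (Cldn5, Kdr, Cdh5, Pecam1 and Flt1), all positive, where 6.95% of all genes had such a p and were positive. Markers of some other cell types leaned the same way. Positive were 5 of 5 erythrocyte genes (median 1.15), 12 of 13 pericyte and smooth muscle genes (0.31) and 8 of 9 choroid plexus genes (0.29). Medians were 0.20 for the members and 0.04 for all genes. None of these marker genes passed, and their part in the members' values was not tested. The lists of the remaining cell types are not given for this comparison. For Mfsd2a the difference between genotypes was -0.11 with an interval of -0.45 to 0.22. The age difference did not pass a test of dependence on the ASO for any member, with values of -0.15 (Slc2a1) to 0.21 (Kdr) and 0% of all genes called.

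The mutation was compared with WT under the control ASO, the question closest to the disease model. Averaged over the 3 cohorts, 0 of the 10 barrier genes passed, while 4.28% of all genes did, and 0 had an unadjusted limma p under 0.05. Values ran from -0.13 for Pecam1 (SE 0.066, adjusted p = 0.302) to 0.11 for Mfsd2a (SE 0.091, adjusted p = 0.593), and 8 of the 10 were negative. The median was -0.07, against 0.01 over all genes. Over the members, the 95% intervals lay between -0.29 (Kdr) and 0.29 (Mfsd2a), so the data bound the average difference and do not show that it is 0. For Mfsd2a an exact permutation test within cohorts gave an unadjusted p of 0.0473, where the smallest possible is 0.00025.

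Within cohorts the mutation again gave 0 calls among the 10 genes, where 0.17%, 0.133% and 0.133% of all genes passed in the 8-week, 3-week P209L and R206W cohorts. The balance of signs differed between cohorts. At 8 weeks 6 members were positive and 4 negative, with a median of 0.08, against 0.03 for all genes. In each 3-week cohort 1 was positive and 9 negative. Medians there were -0.12 for P209L and -0.14 for R206W, against -0.005 for all genes in each. In the 8-week cohort the P209L and WT groups overlapped for all 10, where 6.33% of all genes were higher and 3.5% lower without overlap. In the 3-week P209L cohort, Pecam1 had 10.33, 11.01 and 10.67 TPM in P209L mice, against 13.15, 11.28 and 13.24 TPM in WT mice, and Mfsd2a had 35.4, 35.6 and 32.4 TPM, against 30.3, 32.2 and 29.4 TPM. Pecam1 was thus lower and Mfsd2a higher without overlap, as 11.1% and 9.79% of all genes were in those directions. In the other cohorts the groups overlapped for both genes, though the signs were the same. Pecam1 gave -0.02 at 8 weeks and -0.15 in the R206W cohort, and Mfsd2a gave 0.06 and 0.09, without a call. In the R206W cohort, Cldn5 had 69.2, 73.6 and 53.7 TPM in R206W mice, against 74.2, 74.7 and 73.8 TPM in WT mice, lower without overlap, as 5.39% of genes were, and 0 members were higher (6.33% of genes). That difference of -0.19 (SE 0.091) had an adjusted p of 0.571. Cldn5 gave -0.29 in the 3-week P209L cohort (SE 0.12, adjusted p = 0.523) and 0.14 in the 8-week cohort (SE 0.163, adjusted p = 0.929).

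Under the Hnrnph2 ASO, mutant and WT mice also gave 0 calls among the 10 genes, with averages from -0.14 (Flt1) to 0.06 (Cldn5) and 0.67% of all genes called. Within cohorts 0 of 10 passed as well, beside 0%, 0% and 0.00606% of all genes in the 8-week, 3-week P209L and R206W cohorts. At 8 weeks, Cldn5 had 56.9, 55.6 and 54.1 TPM in P209L mice, against 50.4, 38.6 and 37.3 TPM in WT mice, higher without overlap, as 5.5% of genes were (0.40, SE 0.163, adjusted p = 0.998). At 3 weeks the same gene had 56.8 and 49.7 TPM in P209L mice, against 63.9, 57.2 and 67.7 TPM in WT mice, lower without overlap. Flt1, Kdr and Slco1a4 were also lower without overlap there, for 4 of 10 members, in a comparison of 2 libraries with 3 in which 16.8% of all genes were. The library that stood apart is one of the 3 WT libraries of that 3-week P209L cohort comparison, and it was not the lowest of them for any of these 4 genes. Markers of some other cell types separated in the same comparison. The summed erythrocyte genes were 1020 and 1613 TPM in P209L mice, against 2178 to 5848 TPM in WT mice. The pericyte and smooth muscle genes were 151 and 190 TPM, against 199 to 236 TPM, and the choroid plexus genes 637 and 668 TPM, against 813 to 1075 TPM. The median log2 differences of these lists were -1.47, -0.39 and -0.47, beside -0.19 for the 10 members and -0.04 for all genes. Summed oligodendrocyte, astrocyte, neuronal, microglial, leukocyte and platelet, leptomeningeal and cerebellar genes overlapped. The part of these cell types in the members' values was not tested. In the R206W cohort 0 members separated in either direction, beside 5.51% of genes higher and 3.21% lower.

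**Figure D4:**
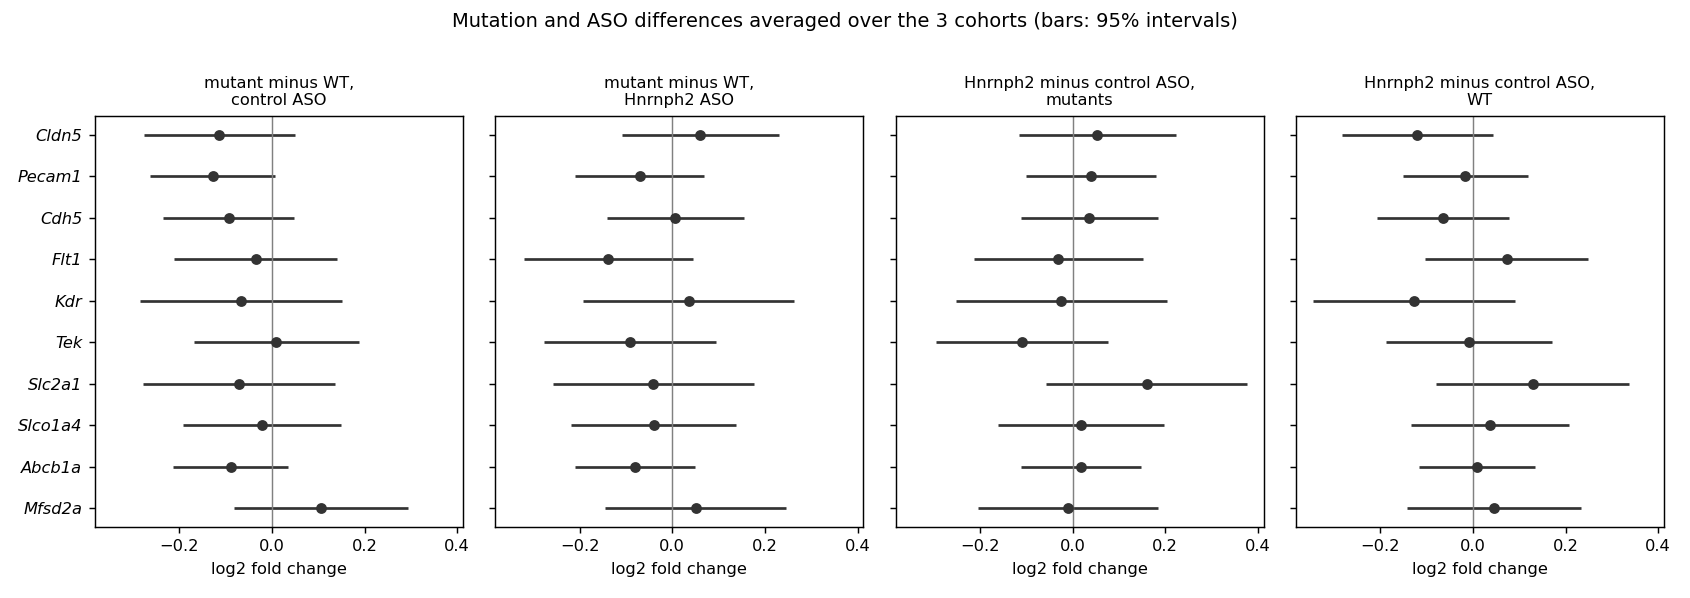
Log2 fold change of each gene (vertical axis) averaged over the 3 cohorts, with 95% intervals, for mutant minus WT under each ASO and for the Hnrnph2 minus the control ASO in mutant and in WT mice (horizontal axes, on log2(TPM + 1)). The intervals of all 10 genes include 0 in each comparison, and the averages lie between -0.14 and 0.16.

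The Hnrnph2 ASO was compared with the control ASO in each genotype, which asks whether the treatment itself touched the vessels' genes. In mutants, averages ran from -0.11 (Tek) to 0.16 (Slc2a1) and 0 of 10 passed, beside 2.5% of all genes. In WT mice they ran from -0.13 (Kdr) to 0.13 (Slc2a1) and 0 of 10 passed, beside 0.187% of all genes. The 95% intervals lay between -0.30 and 0.38 in mutants and between -0.35 and 0.34 in WT mice. Library titles carry animal-name stems of unstated meaning, and 0 stems occur under both ASOs in any cohort, so stem and ASO cannot be told apart. In the R206W cohort, 2 stems cover all libraries with the Hnrnph2 ASO and 2 others all those with the control ASO. The ASO difference in mutants minus that in WT mice ran from -0.10 (Flt1) to 0.17 (Cldn5), and 0 of 10 passed (0.302% of all genes), with a smallest adjusted p of 0.815.

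Within cohorts 0 of 10 passed in mutants (0.0908%, 0.0969% and 0.097% of all genes in the 8-week, 3-week P209L and R206W cohorts) and 0 of 10 in WT mice (0.0182%, 0.0121% and 0.0121%), but a few groups did not overlap. In WT mice of the R206W cohort, Cldn5 had 57.3, 58.9 and 61.1 TPM with the Hnrnph2 ASO, against 74.2, 74.7 and 73.8 TPM with the control ASO. Kdr had 7.22, 5.56 and 6.34 TPM, against 10.6, 9.50 and 7.70 TPM, and Pecam1 was likewise lower, for 3 of 10 members without overlap, where 8.01% of all genes were lower without overlap. The difference for Cldn5 was -0.32 (SE 0.091, unadjusted p = 0.00427, adjusted p = 0.538) and that for Kdr was -0.47 (SE 0.16, adjusted p = 0.642). In the same comparison the summed erythrocyte genes ran from 3906 to 4975 TPM with the Hnrnph2 ASO and from 2050 to 2665 TPM with the control ASO. The summed leptomeningeal genes ran from 1973 to 2481 and from 1474 to 1609 TPM, both lists without overlap. Pericyte and smooth muscle sums were lower without overlap (187 to 211 against 215 to 230 TPM). So were the sums of barrier transporters (1122 to 1157 against 1229 to 1275 TPM). The VEGF and angiopoietin list (219 to 229 against 238 to 258 TPM) and endothelial identity list (353.6 to 371.6 against 372.3 to 395.6 TPM) were also lower. The other summed lists overlapped. The part of these lists in the members' values was not tested. WT mice of the P209L cohorts showed 0 members without overlap at either age, beside 4.73% of genes higher and 2.43% lower at 8 weeks and 5.55% higher and 2.93% lower at 3 weeks. In mutants, 1 member was higher without overlap in each cohort: Cldn5 at 8 weeks (7.44% of genes in that direction), Mfsd2a in the 3-week P209L cohort (12.6%) and Slco1a4 in R206W mice (5.11%). In these 3 comparisons 0 members were lower without overlap, beside 5.21%, 12.5% and 5.8% of genes.

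In the wider vascular lists the mutation and the ASO gave few calls. With the mutation, 1 of the 16 endothelial identity genes passed, Ly6c1, at -0.19 (SE 0.042, adjusted p = 0.00694), and 0 passed among the tight junction, transporter, VEGF, Wnt, permeability and arterial and venous lists. Over all genes 2.55% were higher and 1.73% lower with the mutation. Among markers of other cell types, 4 of 7 oligodendrocyte, 4 of 7 cerebellar, 2 of 13 pericyte and smooth muscle, 2 of 11 leptomeningeal and 1 of 7 astrocyte genes were lower, and 1 cerebellar gene was higher. Their medians ran from -0.25 in the cerebellar and leptomeningeal lists to -0.05 in the astrocyte list, beside -0.07 for the members, and their part in the members' values was not tested. With the ASO in mutants, 1 of 7 permeability and adhesion genes passed, the leukocyte adhesion gene Icam1, at 0.29 (SE 0.072, adjusted p = 0.0266), beside 2.5% of all genes. In the same comparison 7 of 7 microglial genes (median 0.16, 1 of them called) and 11 of 11 leptomeningeal genes (median 0.20, 0 called) were positive, and their part in the value of Icam1 was not tested. With the ASO in WT mice, 0 genes passed in these 7 lists. Ly6c1 and Icam1 were named because they passed, after their values were seen.

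Within groups the 10 genes varied together to differing degrees. As a description over the 35 libraries, which share their scaling to a common total, the deviations from the group means had a median pairwise correlation of 0.43 over the pairs of members. It was highest for Cdh5 with Tek (0.83), Flt1 with Slco1a4 (0.80) and Slc2a1 with Mfsd2a (0.77). It was lowest for Tek with Slc2a1 (-0.51) and Cldn5 with Slc2a1 (-0.43). The library that stood apart had the largest deviations of all 35 for Slc2a1 (0.53) and Mfsd2a (0.63). The correlations were not computed without it. Slc2a1 and Cldn5 were the members least like the rest, with median correlations of 0.11 and 0.18 with the others. Replicate 1 of the R206W mice with the control ASO was above its group mean for all 10 genes and replicate 3 of the same group for 1 of 10.

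Many genes outside the vascular lists varied in the same way. The members' mean standardised deviation correlated at -0.78 with the share of TPM held by the 50 most abundant genes and at -0.55 with the mitochondrial share, and 14% of all tested genes correlated with it at 0.7 or more. The genes most like it were Spast (0.96), Ireb2 (0.93), B4galt6 (0.92), Hnrnpa3 (0.92) and Fam91a1 (0.92), followed by Dhx9, Tcaf1, Arl14ep, Rab3gap2 and Adgrl3 (0.92 to 0.91), and none of the 10 is in the vascular lists. The 16 endothelial identity genes had a median correlation of 0.30 with it, beside 0.25 for all genes, and the members themselves, which make up the measure, had 0.70. Flt1 (0.92) was the member closest to it and Slc2a1 (0.19) the farthest.

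**Figure D5:**
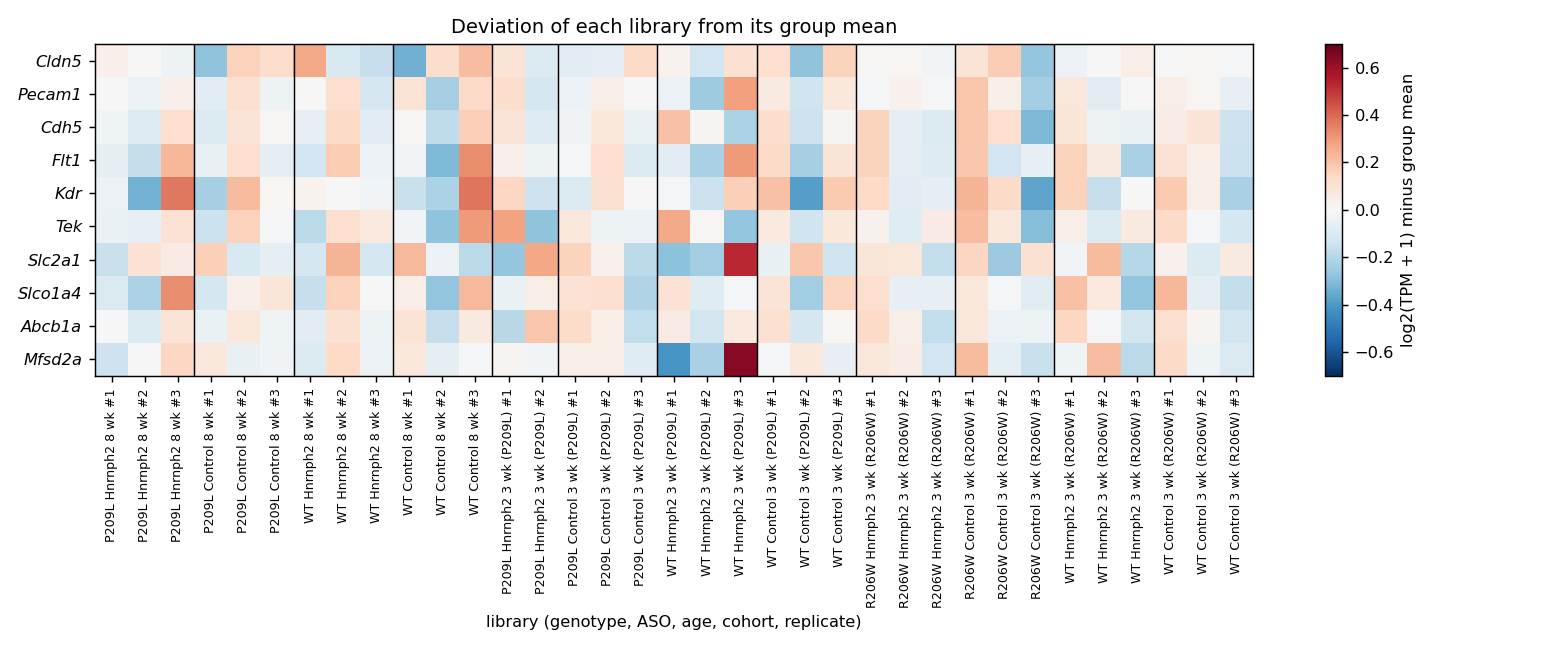
Deviation of log2(TPM + 1) from the group mean (colour, red above and blue below) for each gene (rows) in each of the 35 libraries (columns, by group). Replicate 3 of the R206W mice with the control ASO is mostly below its group mean, with 1 of 10 genes above it, and replicate 1 of that group is above for all 10.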

How the data were processed

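Brain RNA was measured in 35 mouse libraries. The authors deposited 1 table of TPM per gene, made from stranded total-RNA libraries per the labels. Trim Galore, RSEM, STAR 2.7.1a and GATK 4.0.4.0 were used on mm10, per the submitters' processing notes, which give them no order here. The annotation, filters and strand setting are not given in the sources used here. All columns matched a sample. Read totals cannot be had from TPM, so depth and counting error are unknown and count tests were not used. Coordinates came from a RefSeq table of the same build, matched by symbol.

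Limma 3.58.1 (R 4.3.3, with a trend, two-sided) was run on log2(TPM + 1) for genes that averaged 1 TPM or more in the fitted libraries, and p-values were adjusted by Benjamini-Hochberg over all genes of a comparison. A pseudocount of 1 understates the change of low genes. Calls used an adjusted p of 0.05. Each cohort had its own fit for comparisons within it, and averages and age came from 1 fit of all 35 libraries with a mean per group. Exact permutation tests shuffled labels within cohort, or age within group. All steps were tested on simulated data. Alternatives were a pseudocount of 0.1, no filter, rescaling by median ratios over 8998 genes of at least 10 TPM, only the compared groups, replicate or animal-name blocks, no trend and leaving out each library. For single members, the permutation tests and the ratios to Pecam1, Cdh5 and Tek were counted as alternatives too, where run.

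The members, lists, tests and alternatives were chosen with earlier results of these data known, and the ratio to Pecam1, Cdh5 and Tek was added after seeing these values, as a description. From each list, up to 4 genes called with age and with the smallest p are named. The genes most like the members were the 10 with the highest correlation with the members' mean standardised deviation.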

Additional observations from a re-analysis of the deposited data

Results flagged for a closer look

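Cldn5 differed in opposite directions between mutant and WT mice under the Hnrnph2 ASO at the 2 ages. At 8 weeks every P209L library was above every WT library, with a log2 difference of 0.40 (limma adjusted p = 0.998), as 5.5% of all genes were. At 3 weeks every P209L library was below every WT library, with a difference of -0.24 (adjusted p = 0.558), as 16.8% of all genes were. Neither passed. The difference between these 2 values was not tested by itself. Over both ASOs, the age difference in P209L mice minus that in WT mice was 0.54 for Cldn5 and did not pass over all genes (limma adjusted p = 0.201).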

How the results depend on the processing

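Of 2437 alternative values for single members, 2257 kept direction and call, 27 lost the call, 15 gained it and 0 called values turned sign; 138 uncalled values turned sign, the largest of them 0.13 in size. Age calls for Mfsd2a (-1.17 to -1.04), Kdr (-0.78 to -0.63) and Cldn5 (-0.36 to -0.26) held under all alternatives run. The alternatives for single members include exact permutation tests and the ratios to Pecam1, Cdh5 and Tek, both judged by unadjusted permutation p. The ratios could only repeat the levels and are no separate check. Members called with age numbered 4, and 3 to 5 with 1 library left out. In single groups, 1 member was called in P209L mice with the Hnrnph2 ASO (3 when rescaled, 2 with a replicate block) and 1 in P209L mice with the control ASO (2 with only the groups compared, 3 with the block), and 3 in WT mice under each ASO (1 with only the groups compared). Between the 3-week WT cohorts 0 members were called (27.1% of all genes were), and 0 to 3 with 1 library left out: 3 (Pecam1, Flt1 and Kdr) without replicate 2 of the P209L cohort's WT mice with the control ASO, 2 without replicate 2 of those with the Hnrnph2 ASO. The cause was not tested. The mutation and ASO comparisons had 0 members called under every alternative but the exact permutation test of Mfsd2a in the mutation average (unadjusted p = 0.0473). The same test gave 0.0396 for Abcb1a with age.

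Same-numbered replicates share only a number: in no comparison did every pair's deviations correlate over 0.1 (from -0.17 to 0.28). With the replicate block 4 members were called with age, as without it, and against the R206W cohort's WT mice Flt1 lost its call (adjusted p = 0.131). Blocking on animal-name stems could not be fitted in the 8-week cohort. Depth is unknown and groups hold 2 or 3 libraries, so a member that did not pass is bounded by its interval and not shown to be unchanged.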
